A study of Danio rerio with 6 samples.

Results

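The transforming growth factor-β (TGF-β) superfamily was read in livers of zebrafish larvae that were treated with DMSO or with the PPARα agonist GW7647. Its genes were taken by name, as the listed genes called *bmp* with a number, *bmpr*, *gdf* with a number, *inha*, *inhb*, *tgfb1* to *tgfb3*, *tgfbr*, *smad*, *acvr*, *fstl*, *fsta* or *fstb*, in any case. This gave 73 of 25281 listed genes, by a rule that reads names and not values. All larvae carried the *Tg*(*fabp10a:pt-β-catenin*) transgene, in which the hepatocyte promoter *fabp10a* drives a stable Xenopus β-catenin, so the DMSO group is a model of hepatocyte damage with liver progenitor cells (LPCs) and not a healthy liver. Larvae received DMSO, the vehicle, or 1 µM GW7647 for 2 days, from 13 to 15 dpf, and were fasted meanwhile. Livers of many larvae were pooled for each library, with 3 libraries in each group. The labels number the libraries but do not say whether they came from separate clutches, so p-values measure the spread between these pools.

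Ligands of the superfamily are secreted dimers that bind a type II and a type I receptor kinase on the cell surface. The receptors phosphorylate Smad proteins, Smad2 and Smad3 for TGF-β and activin and Smad1, Smad5 and Smad9 for bone morphogenetic proteins (BMPs), which enter the nucleus with Smad4, while Smad6 and Smad7 inhibit the pathway. In the mammalian liver, TGF-β is best known for activating stellate cells to make matrix, and BMP6 for inducing the iron hormone hepcidin in hepatocytes. No sequence of these genes was used here.

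Libraries held 19961881 to 25224356 exon reads, of which 96.3% to 96.8% mapped to 1 place. Levels are given as CPM, exon reads scaled to the size of the library times its TMM factor, a scaling for composition. Hepatocyte transcripts were abundant, and their summed level was 43990 to 45920 CPM with DMSO and 62640 to 68510 CPM with GW7647. Of 23 hepatocyte markers 15 were higher and 1 lower, where 5.5% of all tested genes were higher and 3.56% lower. Of 13 tested markers of biliary epithelial cells (BECs) and LPCs, 3 were lower, and their summed level went from 13570 to 15130 CPM down to 11710 to 12300 CPM. Pancreas transcripts summed to 11.8 to 105 CPM with DMSO and 13.3 to 25.3 CPM with GW7647, a wide spread between the DMSO libraries. In bulk RNA, fewer cells of a type and less RNA per cell cannot be told apart.

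The transcripts of the 2 most abundant TGF-β ligands, *tgfb3* and *tgfb1a*, fell with GW7647, and those of *bmp1a*, a procollagen-cleaving protease, and of *INHBC*, an inhibin subunit, rose. None of the receptors and Smads taken by the naming rule passed the test. Of the 73 genes, 50 had enough reads to be tested, and 2 of these were higher and 2 lower at an adjusted p of at most 0.05 (edgeR quasi-likelihood test with Benjamini-Hochberg adjustment over 15705 genes). Over all tested genes, 5.5% were higher and 3.56% lower by the same rule, 9.06% in all. The share of the superfamily that changed was 4% each way, near that of any gene in this fit. The upward share includes *INHBC*, which entered the test only through its reads with GW7647. Where 10 reads were required in every library, 47 genes were tested, 1 higher and 2 lower. All 4 genes that passed without this stricter filter were also DEGs, that is, changed at least 1.5-fold. This held for 3.39% of all genes upward and 2.62% downward. With library totals in place of the scaling factors the counts were 2 higher and 20 lower, and this shifted the median of all genes from a log2 fold change of −0.01 to −0.23. The share of all genes that passed with library totals was not computed. With the replicate number as a block, 2 of the 50 tested genes were higher and 8 lower, against 9.95% and 7.72% of all genes. In that fit the downward share of the family was above that of all genes and the upward share below it.

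The fold changes leaned downward. Of the 50 tested genes, 33 had a log2 fold change below 0 (66%, against 51.8% of all tested genes), and the median was −0.15, against −0.01 over all genes. In 17 of them, 34%, every GW7647 library was below every DMSO library, which held for 15.3% of all genes. In 3 of them, *INHBC*, *bmp1a* and *tgfbr2b*, every GW7647 library was above every DMSO library, which held for 15.7% of all genes. *INHBC* entered the test only through its reads with GW7647. With a filter of 10 reads in every library it was not tested, and 1 gene of the family rose, *bmp1a*.

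**Figure D1:**
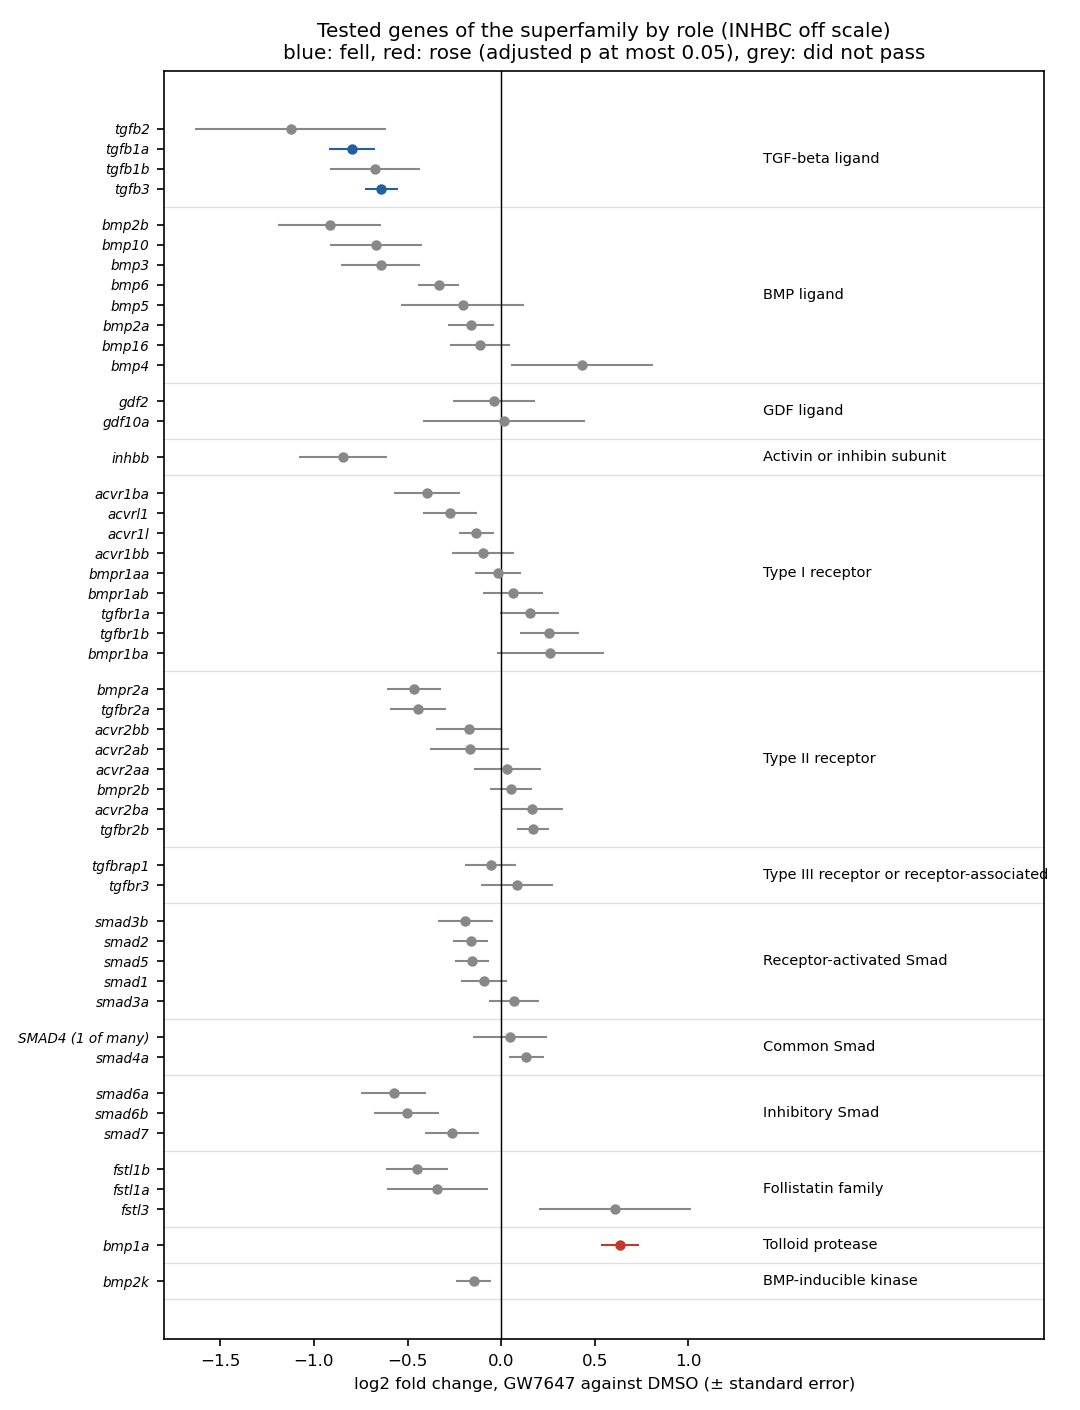
Log2 fold change (x axis, GW7647 against DMSO, bars: standard error) of 49 tested genes grouped by role, with *INHBC* left out because it lies off the scale. The ligands at the top lie mostly to the left of 0, with *tgfb1a* at −0.80 and *tgfb3* at −0.64 in blue, while the receptors lie on both sides and *bmp1a* at 0.64 is the red point.

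TGF-β ligands bind Tgfbr2 and Tgfbr1 and are held in the matrix in a latent form until released. All 4 zebrafish genes, *tgfb1a*, *tgfb1b*, *tgfb2* and *tgfb3*, were detected, and in each of them the GW7647 libraries lay below the DMSO libraries. Such a separation held for 15.3% of all tested genes, and for *tgfb2* it was narrow and rested on few reads. *tgfb3* was at 28.6, 28.5 and 27.1 CPM with DMSO and at 18.04, 18.4 and 17.5 CPM with GW7647. The libraries within a group were close and the groups lay far apart, with a mean of 28.1 ± 0.825 CPM against 18.004 ± 0.464 CPM (SD, n = 3). Its log2 fold change was −0.64 with an SE of 0.088 (edgeR adjusted p = 0.00379). *tgfb1a* was at 16.7, 16.6 and 14.6 CPM with DMSO and at 8.37, 8.96 and 10.2 CPM with GW7647. Here too no library of a group reached the other group, and the log2 fold change was −0.80 with an SE of 0.12 (edgeR adjusted p = 0.00616). Both genes kept the call when any 1 of the 6 libraries was left out, with adjusted p from edgeR of 0.0133 to 0.0301 for *tgfb1a* and of 0.0133 to 0.0204 for *tgfb3*. *tgfb3* spans 52059020 to 52091999 on chromosome 17 and *tgfb1a* spans 2776506 to 2803313 on chromosome 15, both on the minus strand, in the deposited annotation, whose genome build is not given in the sources used here.

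The other TGF-β ligands were scarce. *tgfb1b*, the second copy of the TGF-β1 gene, was at 2.99, 4.32 and 2.75 CPM with DMSO and at 1.74, 2.08 and 2.46 CPM with GW7647, a log2 fold change of −0.67 that did not pass (edgeR adjusted p = 0.121). *tgfb2* was at 0.460, 1.198 and 0.524 CPM against 0.163, 0.387 and 0.424 CPM, a log2 fold change of −1.13 with an SE of 0.51 (edgeR adjusted p = 0.211). These levels came from 10, 28 and 12 reads with DMSO and 3, 8 and 10 reads with GW7647. The make-up of the ligand pool was close in both groups. Per exon length (RPKM), *tgfb3* was 66.5% ± 3.22 of the summed level of the 4 genes with DMSO and 68.6% ± 3.56 with GW7647 (SD, n = 3). *tgfb1a* was 18.5% ± 0.765 with DMSO and 17.1% ± 1.196 with GW7647, and the library ranges of both genes' shares overlapped between groups.

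**Figure D2:**
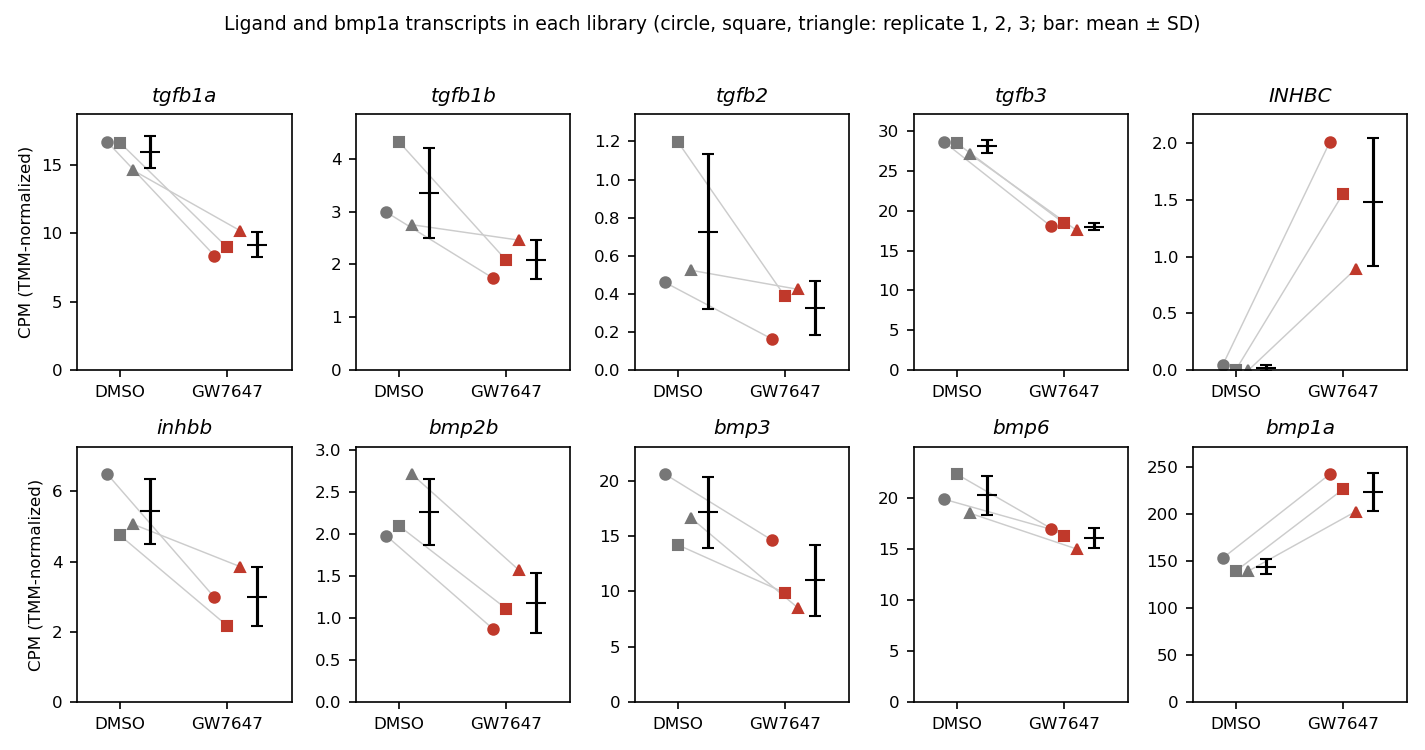
TMM-normalized CPM (y axis, from 0) of 9 ligand or subunit genes and *bmp1a* in each library, by treatment, with the mean and SD as bars and a grey line between libraries of the same number. All 3 GW7647 libraries lie below all 3 DMSO libraries for *tgfb1a*, *tgfb1b*, *tgfb2*, *tgfb3*, *inhbb*, *bmp2b* and *bmp6*, the groups overlap for *bmp3*, and GW7647 lies above for *INHBC* and *bmp1a*.

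Markers of some other cell types were lower in the same libraries, in which 3.56% of all tested genes fell. Of 16 tested stellate cell and fibroblast markers, 8 fell (*hand2*, *col1a1b*, *col5a1*, *pdgfra*, *pdgfrb*, *acta2*, *colec11* and *angptl6*), and the summed level of the list was 270.1 to 353.1 CPM with DMSO and 171.6 to 194.9 CPM with GW7647. Of 16 leukocyte markers, 4 fell (*mpeg1.2*, *spi1b*, *cd74a* and *mpx*), and the summed level was 171.5 to 210.7 CPM against 145.3 to 157.8 CPM. None of 18 endothelial markers passed, with a summed level of 291.6 to 328.3 CPM against 277.7 to 318.5 CPM. All 8 tested skeletal muscle markers had log2 fold changes below 0 and 1 fell, *mb*, with a summed level of the list of 34.98 to 73.4 CPM against 22.7 to 32.6 CPM. No marker of these lists was at 0 in all libraries. The part of these cell types in the fall of *tgfb1a* and *tgfb3* was not tested.

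Activins, which signal through Smad2 and Smad3, are pairs of inhibin β subunits, and neither protein nor signaling was measured here. *INHBC*, the βC subunit gene, which in mammals is made mainly in the liver, was near absent with DMSO and present with GW7647. Its exon reads numbered 1, 0 and 0 with DMSO and 37, 32 and 21 with GW7647. Every read mapped to 1 place, and 3, 2 and 2 of the GW7647 reads crossed an exon junction, while intron reads numbered 0, 1 and 1 with DMSO and 6, 9 and 9 with GW7647. The 90 reads with GW7647 against 1 with DMSO gave a ratio of 97.7, scaled for library size and TMM factor. Its exact 95% interval of 17.1 to 3901 pools the libraries and covers counting error only. *INHBC* entered the test only through these GW7647 reads, so its call (edgeR adjusted p = 0.00191 over libraries) gives no support to the counts that include it. Its level stayed low even so, at 2.01, 1.55 and 0.89 CPM with GW7647. *INHBC* spans 59557501 to 59563597 on chromosome 6.

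*inhbb*, the βB subunit gene, was the only other tested subunit. It was at 6.49, 4.75 and 5.07 CPM with DMSO and at 2.99, 2.18 and 3.86 CPM with GW7647. The groups did not overlap, but the log2 fold change of −0.85 with an SE of 0.23 did not pass (edgeR adjusted p = 0.0563). It passed with the block (edgeR adjusted p = 0.0165) and with 7 of the other 10 settings. *inha*, *inhbaa* and *inhbab* had too few reads to be tested.

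BMP ligands pattern the embryo and, in the liver, regulate iron and regeneration. Of 13 BMP ligand genes 8 were tested and none passed, though 7 had a log2 fold change below 0, as did 51.8% of all tested genes. *bmp2b* was at 1.98, 2.096 and 2.71 CPM with DMSO and at 0.87, 1.11 and 1.57 CPM with GW7647, with no overlap and a log2 fold change of −0.92 (edgeR adjusted p = 0.0748, and 0.0251 with the block). *bmp6*, the hepcidin inducer, was at 19.8, 22.3 and 18.5 CPM against 16.9, 16.3 and 15.0 CPM, again without overlap, with a log2 fold change of −0.33 (edgeR adjusted p = 0.0958, and 0.0385 with the block). *bmp3*, which in mammals opposes other BMPs, was at 20.6, 14.2 and 16.6 CPM against 14.6, 9.88 and 8.53 CPM. Its groups overlapped, yet in each same-numbered pair GW7647 was lower, with a log2 fold change of −0.64 (edgeR adjusted p = 0.0955, and 0.00603 with the block).

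*bmp10*, a ligand of the endothelial receptor Alk1, was at 2.49, 1.84 and 2.14 CPM with DMSO and at 1.47, 1.55 and 1.06 CPM with GW7647, without overlap, a log2 fold change of −0.67 that did not pass (edgeR adjusted p = 0.129). *bmp2a*, the other copy of *bmp2b*, was at 11.9 ± 1.22 against 10.6 ± 0.637 CPM (SD, n = 3), also without overlap, with a log2 fold change of −0.16. *bmp16*, *bmp5* and *bmp4* overlapped between groups, with log2 fold changes of −0.11, −0.21 and 0.43. The 2 copies of *bmp2* were not in a fixed ratio. Per exon length, *bmp2a* was 8.33, 9.39 and 6.14 times *bmp2b* with DMSO and 16.8, 14.5 and 10.4 times with GW7647.

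Among growth and differentiation factors, *gdf2*, the BMP9 gene, which in mammals is secreted by the liver and acts on the endothelium, was at 11.5, 8.17 and 7.78 CPM with DMSO and at 11.2, 6.68 and 8.87 CPM with GW7647. These ranges overlapped almost wholly, with a log2 fold change of −0.04 and an SE of 0.22. *gdf10a* was near 0.5 CPM in both groups. The other 8 GDF genes had too few reads to be tested.

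Of the 19 tested receptor and receptor-associated genes taken by the naming rule none passed. The log2 fold change was below 0 in 10 and above 0 in 9, and the median was −0.02. The most abundant, the TGF-β type II receptor *tgfbr2b*, was at 76.6, 81.7 and 81.5 CPM with DMSO and at 87.2, 88.8 and 93.5 CPM with GW7647. This was a small difference without overlap, a log2 fold change of 0.17 that did not pass (edgeR adjusted p = 0.252) and whose sign turned under other scalings. Its paralog *tgfbr2a* was at 5.80, 5.60 and 5.64 CPM against 4.46, 4.41 and 3.69 CPM, a log2 fold change of −0.44 (edgeR adjusted p = 0.107). The ratio of *tgfbr2b* to *tgfbr2a* per exon length does not depend on the scaling, and it was 11.4, 12.6 and 12.4 with DMSO and 16.8, 17.3 and 21.8 with GW7647.

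The BMP type II receptors showed a like pattern. *bmpr2a* had the smallest p of the receptors taken by the naming rule (log2 fold change −0.47, edgeR adjusted p = 0.0796). It was at 6.90, 6.07 and 5.94 CPM with DMSO and 4.56, 4.70 and 4.41 CPM with GW7647. Its copy *bmpr2b* overlapped at 14.9 ± 1.76 against 15.5 ± 0.412 CPM (SD, n = 3). The ratio of *bmpr2b* to *bmpr2a* per exon length was 2.69, 2.49 and 2.58 with DMSO and 3.73, 3.69 and 3.73 with GW7647. Of 11 paralog pairs compared in this way, the ratios of these 2 and of *bmp2a* to *bmp2b* did not overlap between groups, and none was tested. The pairs were picked by hand, and no share over other gene pairs was computed. *acvr2ba* and *acvr2bb*, with log2 fold changes of 0.16 and −0.17, were not among them. The activin type II receptors *acvr2ab* and *acvr2aa* overlapped between groups, with log2 fold changes of −0.17 and 0.03, of which the second turned sign under other scalings.

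Among type I receptors, *acvr1l* (Alk8), the zebrafish receptor that carries BMP signals in the embryo, was the most abundant, at 66.4, 72.2 and 62.4 CPM with DMSO and 62.6, 57.6 and 63.2 CPM with GW7647. The groups overlapped, with a log2 fold change of −0.13. *acvrl1* (Alk1), the endothelial receptor for Bmp9 and Bmp10, was lower in every GW7647 library, at 7.14, 9.24 and 7.78 CPM against 6.90, 6.78 and 6.32 CPM, and did not pass (log2 fold change −0.27, edgeR adjusted p = 0.276). The activin receptor *acvr1ba* had the smallest p of the type I receptors, with a log2 fold change of −0.40 (edgeR adjusted p = 0.199), against −0.10 for its copy *acvr1bb*. The TGF-β type I receptors *tgfbr1a* and *tgfbr1b* had log2 fold changes of 0.15 and 0.26, and *bmpr1aa* and *bmpr1ab*, BMP type I receptors, of −0.02 and 0.06. Betaglycan (*tgfbr3*), a co-receptor, and *tgfbrap1*, a receptor-associated protein, overlapped between groups, with log2 fold changes of 0.08 and −0.06.

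Of 10 Smad genes taken by the naming rule none passed. Among receptor-activated Smads, *smad5* was at 26.8, 24.7 and 24.5 CPM with DMSO and at 22.99, 23.05 and 22.1 CPM with GW7647, and *smad2* was at 24.3, 23.2 and 25.8 CPM with DMSO and at 20.6, 22.6 and 22.3 CPM with GW7647. Both were lower in every GW7647 library by a small margin, with log2 fold changes of −0.16 each (edgeR adjusted p = 0.315 and 0.324). *smad1* overlapped, at 38.7 ± 6.49 against 36.3 ± 1.72 CPM (SD, n = 3), as did *smad3a* and *smad3b*. *smad4a*, a copy of the common Smad, was at 28.1, 27.9 and 25.7 CPM against 31.8, 30.4 and 27.6 CPM, which overlapped, and the gene named SMAD4 (1 of many) had a log2 fold change of 0.05.

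The inhibitory Smads, which are also targets of the pathway, had the most negative values of the Smads taken by the naming rule. *smad6a* was at 5.11, 5.77 and 5.99 CPM with DMSO and 4.46, 3.73 and 3.18 CPM with GW7647 (log2 fold change −0.58, edgeR adjusted p = 0.0775). *smad6b* was at 14.7, 17.1 and 14.6 CPM against 14.1, 9.25 and 9.38 CPM, so that the groups came apart by a narrow gap (log2 fold change −0.50, edgeR adjusted p = 0.11, and 0.0454 with the block). *smad7* overlapped, with a log2 fold change of −0.26.

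Follistatins bind activin, while follistatin-like 1 is a secreted glycoprotein of mesenchymal cells. *fstl1b* was the third most abundant gene of the family per length with DMSO and the fourth with GW7647. It was at 95.4, 128.8 and 98.2 CPM with DMSO and 61.7, 90.0 and 84.0 CPM with GW7647. The groups did not overlap, and the log2 fold change of −0.45 did not pass (edgeR adjusted p = 0.128, and 0.0106 with the block). *fstl1a* and *fstl3* overlapped, with log2 fold changes of −0.34 and 0.61, and *fsta*, *fstb*, *fstl4* and *fstl5* had too few reads to be tested.

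*bmp1a* is named after the BMPs but encodes a tolloid metalloprotease that cleaves procollagens and the BMP antagonist Chordin. It was at 153.3, 139.4 and 139.6 CPM with DMSO and at 242.4, 226.2 and 202.7 CPM with GW7647. Every GW7647 library was above every DMSO library, with a mean of 144 ± 7.98 CPM against 224 ± 19.97 CPM (SD, n = 3). The log2 fold change was 0.64 with an SE of 0.10 (edgeR adjusted p = 0.00726). The call held without any 1 library, with adjusted p from edgeR of 0.0132 to 0.0324, though the change was under 1.5-fold without GW7647 replicate 1, at a log2 fold change of 0.58. It was also under 1.5-fold with upper-quartile factors, at 0.58, without scaling factors, at 0.41, and in the limma fits, at 0.41 to 0.44. *bmp1a* spans 51165392 to 51293301 on chromosome 8. Its copy *bmp1b* had too few reads to be tested, and *bmp2k*, a kinase named for its induction by BMP2, overlapped between groups with a log2 fold change of −0.15.

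Levels of different genes were compared per exon length, as the deposited RPKM. With DMSO *bmp1a*, at 36.9 ± 2.33 RPKM, and *tgfbr2b*, at 34.6 ± 1.351 RPKM, led the family. Their ranges over the libraries overlapped, though *bmp1a* was above *tgfbr2b* within each library. Both genes were followed by *fstl1b* at 22.2 ± 3.34, *acvr1l* at 18.6 ± 0.957, *tgfb3* at 12.7 ± 0.265 and *bmp3* at 10.4 ± 2.07 RPKM (SD, n = 3). Among these neighbours the ranges of *tgfb3* and *bmp3* overlapped, though *tgfb3* was above *bmp3* within each library. The ranges of *fstl1b* and *acvr1l* came apart by a narrow gap, and *acvr1l* lay above *tgfb3* in every library. With GW7647 *bmp1a*, at 49.5 ± 3.72 RPKM, stood above *tgfbr2b*, at 33.6 ± 1.87 RPKM, in every library, and *tgfb3* was at 7.02 ± 0.300 RPKM. *tgfb1a* was a minor transcript, at 3.52 ± 0.210 RPKM with DMSO and 1.75 ± 0.205 RPKM with GW7647.

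**Figure D3:**
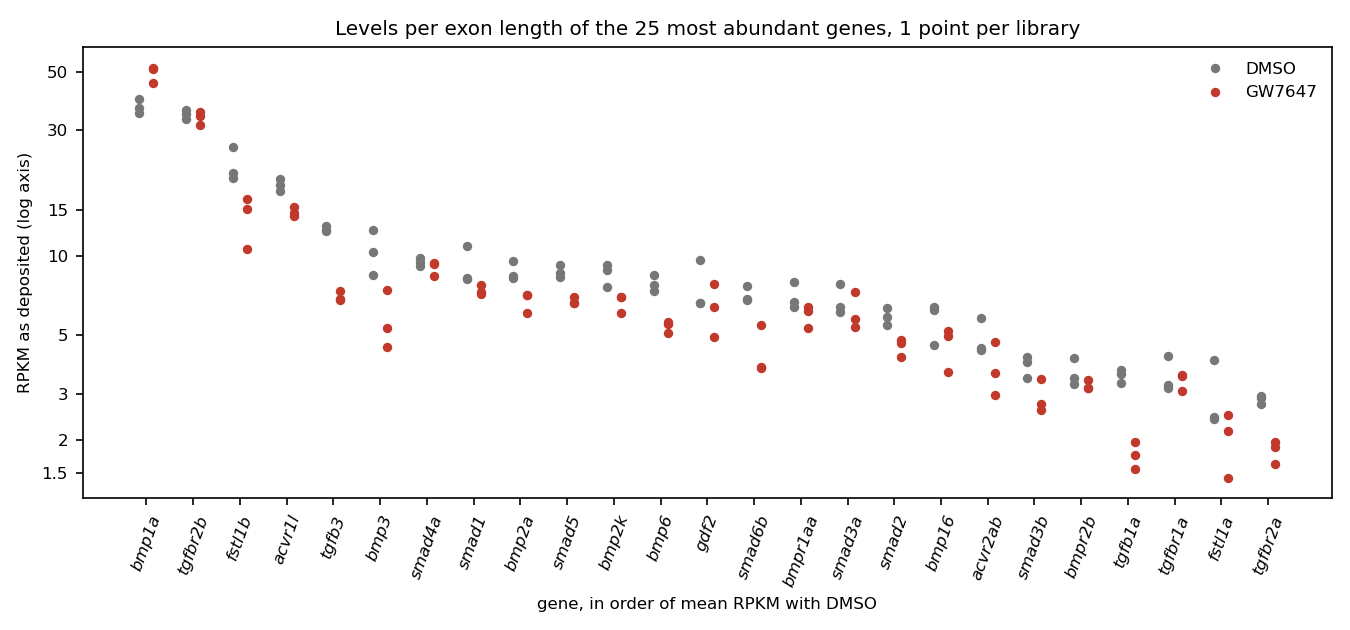
Deposited RPKM (y axis, log scale) of the 25 most abundant genes of the family in each library, in order of their mean with DMSO. *bmp1a* and *tgfbr2b* lead with means of 36.9 and 34.6 RPKM with DMSO. The points of *tgfb3* and *tgfb1a* separate by treatment, as do those of many other genes. Among these are *acvr1l*, *bmp3* and *smad1*, whose groups overlap in CPM. RPKM carries no scaling for composition, and separation on this plot is not particular to *tgfb3* and *tgfb1a*.

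The 23 genes that were not tested had at most 15 reads in any library, the highest being *bmp15*. Among them 20 had at most 5 reads in each library, and *ACVR1C*, *fstl5*, *gdf11*, *gdf6b* and *inha* had none. A floor of 3 reads corresponded to 0.127 to 0.163 CPM, depending on the library, so levels under this rested on fewer than 3 reads.

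Genes that act around the family were read from 7 lists of antagonists, matrix and latency proteins, co-receptors, other ligands, intracellular regulators and target genes. These lists, like the marker lists above, were chosen with earlier results of these data known. The shares given for them describe the lists and test nothing. Of 126 listed names 105 were found as genes outside the family, 70 of these were tested, and 2 were higher and 13 lower (18.6% lower, against 3.56% of all tested genes). Their median log2 fold change was −0.31. When 1 library was left out the count of lower genes ranged from 4 to 14, with 4 without DMSO replicate 2 and 4 without GW7647 replicate 3. The same count for the family was then 2 to 4. Under the other settings the counts of lower genes were 12 to 31 for the lists and 2 to 20 for the family. Except for the replicate block, no share of all genes was computed under these settings.

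Latent TGF-β is held in the matrix and released by a further set of proteins. Of 11 tested genes for latency, matrix and activation 5 fell and none rose, where 3.56% of all tested genes fell and 5.5% rose. *ltbp1*, which tethers latent TGF-β to the matrix, was at 21.5, 25.7 and 26.5 CPM with DMSO and 13.4, 15.2 and 17.4 CPM with GW7647 (log2 fold change −0.68, edgeR adjusted p = 0.0154). *itgav*, the integrin αV that releases it, was at 41.2, 39.6 and 35.6 CPM against 25.1, 28.8 and 26.9 CPM (log2 fold change −0.53, edgeR adjusted p = 0.0147). Neither gene's groups overlapped. *pcolcea*, an enhancer of the procollagen cleavage that Bmp1 carries out, was at 158 ± 30.2 against 103 ± 6.81 CPM (SD, n = 3), opposite in direction to *bmp1a* (log2 fold change −0.62, edgeR adjusted p = 0.0259). *bgnb* and *lrrc32* also fell, with log2 fold changes of −0.56 and −1.67. The size of the fall of *lrrc32* depended on the setting, at −1.88 to −0.48 in the 10 other settings that gave it an adjusted p. Without some single library each of these 5 genes missed the threshold, with adjusted p from edgeR of up to 0.0602 for *ltbp1*, 0.0509 for *itgav*, 0.0865 for *pcolcea*, 0.0878 for *bgnb* and 0.139 for *lrrc32*.

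Of 6 tested antagonists 2 fell, where 3.56% of all tested genes did. Chordin (*chrd*), which sequesters BMPs and is a substrate of Bmp1, was at 41.3, 50.4 and 67.6 CPM with DMSO and 27.7, 27.5 and 29.8 CPM with GW7647 (log2 fold change −0.91, edgeR adjusted p = 0.0128). The DMSO libraries were scattered and all lay above the GW7647 libraries. Without GW7647 replicate 2 its adjusted p from edgeR was 0.0531. *grem2a* had a log2 fold change of −1.24 (edgeR adjusted p = 0.0491), which missed the threshold without any 1 of the libraries. In the 10 other settings that gave it an adjusted p, its log2 fold change was −1.46 to −0.30. In 4 of these settings it missed the threshold.

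Among all tested genes 5.5% rose and 3.56% fell. Of 10 tested co-receptors *hjv*, hemojuvelin, the BMP co-receptor of the hepcidin pathway, rose and none fell. It was at 1.01, 1.75 and 1.05 CPM with DMSO and 2.45, 3.15 and 3.90 CPM with GW7647, with no overlap at this low level (log2 fold change 1.31, edgeR adjusted p = 0.0244). It missed the threshold when replicate 1 or 3 of DMSO or replicate 2 or 3 of GW7647 was left out, with an adjusted p from edgeR of up to 0.0832. *hamp*, hepcidin itself, did not pass, at 215.9, 192.7 and 97.4 CPM against 283.4, 180.4 and 170.4 CPM, which overlapped. *bambia*, a decoy receptor and the most abundant co-receptor per length, had a log2 fold change of −0.34 (edgeR adjusted p = 0.0726).

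None of 12 tested BMP-Smad target genes passed, where 5.5% of all genes were higher and 3.56% lower. Yet 9 of the 12 had a log2 fold change below 0, with a median of −0.32. In 6 of them, 50%, every GW7647 library was below every DMSO library, against 15.3% of all genes. The list includes *smad6a*, *smad6b* and *smad7* of the family. *id1*, the best known of them, was at 89.5, 104.5 and 74.1 CPM with DMSO and 72.2, 73.8 and 68.1 CPM with GW7647, a log2 fold change of −0.33 (edgeR adjusted p = 0.149, and 0.0444 with the block), while *id3* was at 47.1, 57.7 and 46.7 CPM against 54.9, 73.0 and 59.4 CPM. Of 20 tested intracellular regulators 1 fell, the Smad corepressor *tgif1* (log2 fold change −0.70, edgeR adjusted p = 0.028), and it missed the threshold without any of 5 of the 6 libraries. The most abundant regulator, *fkbp1aa*, had a log2 fold change of −0.05.

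Of 20 tested TGF-β-Smad target genes 5 fell and 1 rose, where 3.56% of all tested genes fell and 5.5% rose. *snai1b*, a transcription factor of epithelial-to-mesenchymal transition, was at 6.63, 8.60 and 6.64 CPM with DMSO and 2.72, 3.78 and 3.39 CPM with GW7647, without overlap (log2 fold change −1.14, edgeR adjusted p = 0.00822). *col1a1b*, a type I collagen chain, fell by 1.09 and *fn1a*, a fibronectin, by 0.83 on the log2 scale (edgeR adjusted p = 0.0168 and 0.0181). The 2 fibronectin genes went opposite ways, since *fn1b* rose from 388.8 ± 98.4 to 1064 ± 129 CPM (SD, n = 3; log2 fold change 1.45, edgeR adjusted p = 0.00222). *snai1b* and *fn1b* kept their calls without any 1 library, while *col1a1b*, *fn1a* and *acta2* each missed the threshold without some. *acta2* and *col1a1b* also stand among the stellate cell markers above, and the part of stellate cells in these falls was not tested.

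**Figure D4:**
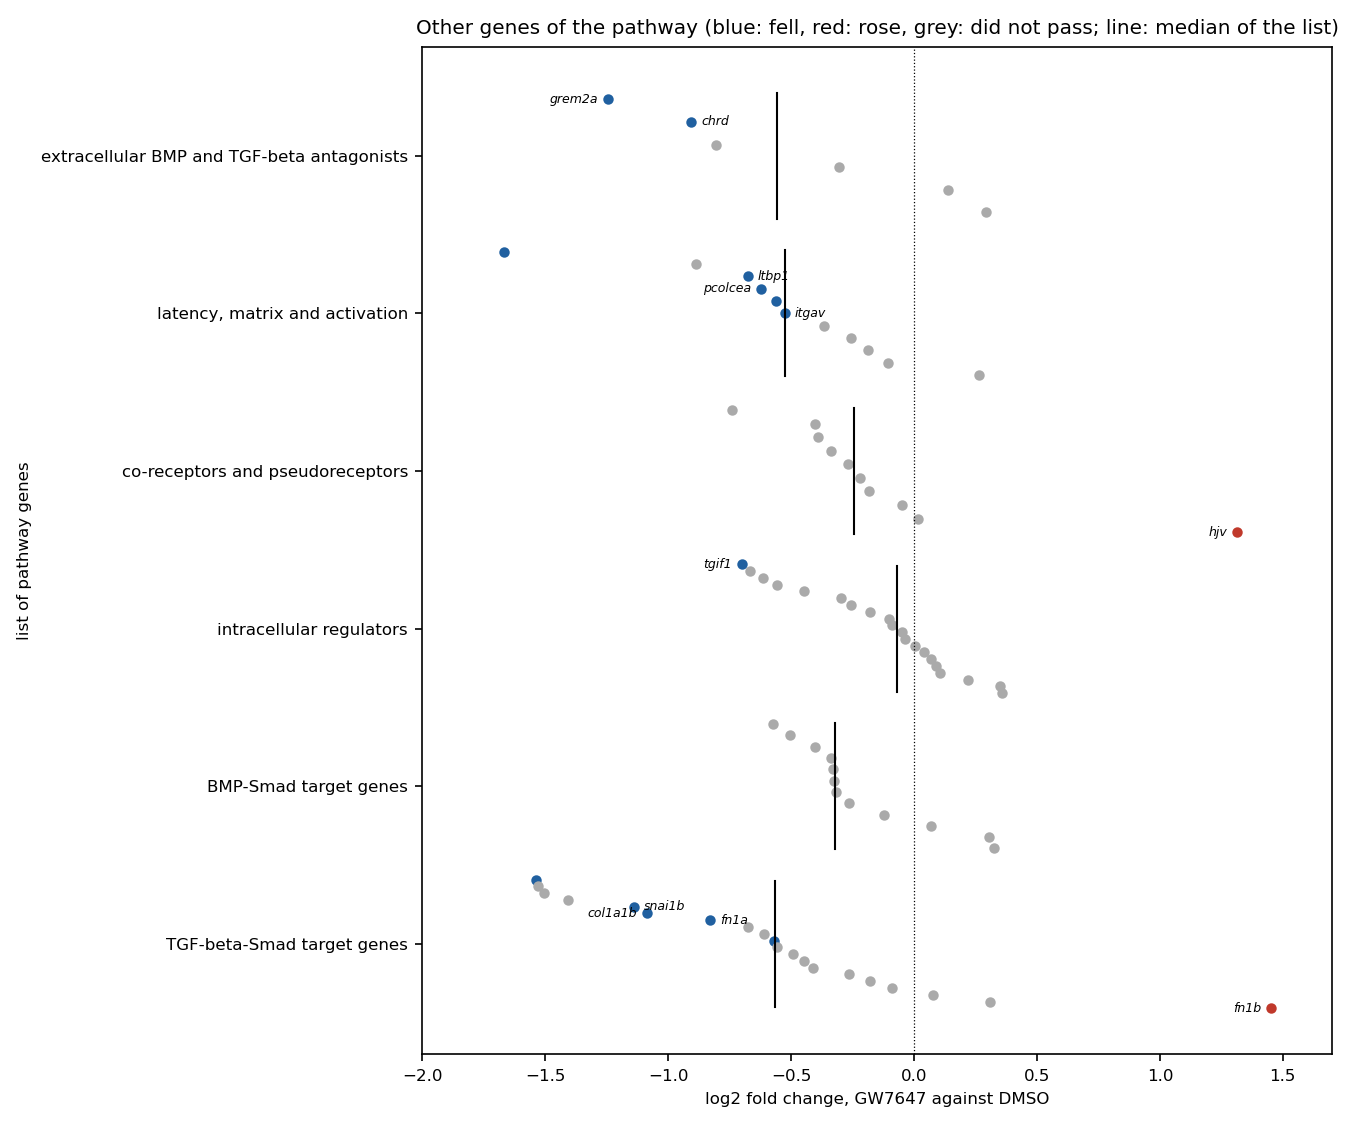
Log2 fold change (x axis, GW7647 against DMSO) of the tested genes of 6 lists around the superfamily, 1 point per gene, with the median of each list as a line and up to 3 genes each way named, those that passed with the smallest adjusted p. The medians lie between −0.56 and −0.07, genes that fell are at the left in the antagonist, latency and TGF-β target lists, and *hjv* at 1.31 and *fn1b* at 1.45 are the 2 genes that rose.

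A further 5 genes fell outside the naming rule because the deposited tables hold other names for them, and a table of gene IDs gave their symbols. The gene named *tgfbr2l* there, a TGF-β type II receptor-like gene by name, was at 18.4, 23.8 and 23.5 CPM with DMSO and 9.89, 11.9 and 14.1 CPM with GW7647. The groups did not overlap and the gene fell (log2 fold change −0.87, edgeR adjusted p = 0.0125), so that among type II receptor genes of either naming it was the one that passed. *smad10b* also fell, from 5.26 ± 0.447 to 3.21 ± 0.585 CPM (SD, n = 3; log2 fold change −0.71, edgeR adjusted p = 0.0465). *smad10a* and *smad9*, the third BMP-activated Smad, overlapped between groups, with log2 fold changes of 0.11 and 0.03, and the gene named INHBB had no reads. The gene read here as *smad9* is named *alg5_1* in the deposited annotation, and which name fits its reads was not tested.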

How the data were processed

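Gene expression was measured in 6 RNA libraries of dissected livers, 3 treated with DMSO and 3 with GW7647, made with a stranded poly(A)+ kit. The authors used CLC Genomics Workbench to map reads to the zebrafish genome and deposited, for each gene, the count of reads on exons without normalization. They also deposited TPM and RPKM, which divide those reads by exon length and library total and carry no scaling for composition. The version, genome build and setting for strand and for reads of several places are not given in the sources used here.

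The groups were tested on exon counts in R 4.3.3 by edgeR 4.0.16 (quasi-likelihood, two-sided) after TMM scaling and filterByExpr (minimum count 10), with no covariate, over 15705 genes, with Benjamini-Hochberg adjustment. CPM values were computed with the TMM factors, which were 1.048 to 1.104 for DMSO and 0.903 to 0.940 for GW7647. A gene passed at an adjusted p of at most 0.05, and a DEG also changed at least 1.5-fold. The text names every member that passed, for each role the gene with the smallest p and the 2 with the highest RPKM with their paralogs, genes whose groups do not overlap, and of the lists up to 3 genes each way and the most abundant. Other genes were named after their values were seen, and 1 gene that the rule names is not reported here. Members, roles and lists were chosen with earlier results of these data known. Gene names follow the deposited tables, supplemented by a table of gene IDs.

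Alternatives were DESeq2 1.42.0, limma 3.58.1 on log2 RPKM or TPM, other scalings, filters and read classes, each library left out, and the replicate number as a block. Deviations from the group means of same-numbered libraries correlated at 0.324, 0.201 and 0.161, and those of other pairs at −0.239 to 0.0754, so the numbers were taken to pair the libraries, a pairing that comes from the data and not from the labels. Figures were drawn with matplotlib 3.10.9 in Python 3.11.15.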

Additional observations from a re-analysis of the deposited data

How the results depend on the processing

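The calls on *tgfb1a*, *tgfb3* and *bmp1a* held under every alternative, and that on *INHBC* under all but the filter of 10 reads in every library, which left it untested. Genes of the family that fell numbered 4 with DESeq2, 20 without scaling factors, 8 with the replicate block, 15, 15 and 13 with limma on log2(RPKM + 1), log2(RPKM + 0.1) and log2(TPM + 1), and 2 to 4 with 1 library left out. Those that rose numbered 1 under the filter of 10 reads in every library. DEGs that fell numbered 4, 13, 5, 6, 12 and 8 in the same order and 2 to 4 with 1 library left out. DEGs that rose numbered 1 with upper-quartile factors, without scaling factors, under that filter and in the 3 limma fits, and 1 to 2 with 1 library left out. Without GW7647 replicate 1, 4 genes fell and 1 DEG rose. Genes of the surrounding lists that rose numbered 5 with the block and 1 to 2 with 1 library left out. Those that fell numbered 31 without scaling factors, 28 with the block, 26, 26 and 23 in the limma fits, and 4 to 14 with 1 library left out. The block changed no other call on a member than those printed beside the genes. Among these alternatives the share of all genes that passed was computed only for the block, at 9.95% higher and 7.72% lower. Without that share, the larger counts without scaling factors and with limma cannot be read as a result about the family or the lists.

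The median log2 fold change of the family was −0.16 with DESeq2, −0.20 with upper-quartile factors, −0.37 without scaling factors, −0.16 with genes of at least 1 read, −0.17 with 10 reads in every library, −0.13 with all reads of the gene, and −0.29, −0.35 and −0.30 in the limma fits. With 1 library left out it was −0.17 to −0.095. Over all genes it was −0.07, −0.23 and −0.14 to −0.21 with upper-quartile factors, without scaling and with limma, so most of the shift was shared.

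Some log2 fold changes near 0 turned sign, none past the test. Without scaling factors they were −0.20 for *gdf10a*, −0.16 for *bmpr1ab*, −0.19 for *acvr2aa*, −0.17 for *bmpr2b*, −0.052 for *tgfbr2b*, −0.13 for *tgfbr3*, −0.087 for *smad4a* and −0.17 for SMAD4 (1 of many). With limma on log2(RPKM + 1), log2(RPKM + 0.1) and log2(TPM + 1) they were −0.043, −0.21 and −0.070 for *gdf10a*, −0.098, −0.14 and −0.10 for *bmpr1ab*, −0.13, −0.18 and −0.13 for *acvr2aa*, −0.12, −0.15 and −0.11 for *bmpr2b*, −0.041, −0.042 and −0.018 for *tgfbr2b*, −0.060, −0.11 and −0.061 for *tgfbr3*, −0.069, −0.075 and −0.050 for *smad4a*, and −0.13, −0.18 and −0.13 for SMAD4. Upper-quartile factors gave −0.036 for *gdf10a*, −0.018 for *acvr2aa* and −0.0046 for SMAD4. *gdf10a* was at −0.027 with the block and −0.056 with all reads, which gave −0.015 for *bmpr1ab*. With 1 library left out the values were −0.21 to 0.35 for *gdf10a*, −0.23 to 0.16 for *gdf2*, −0.090 to 0.081 for *bmpr1aa*, −0.13 to 0.19 for *acvr2aa*, −0.035 to 0.23 for *tgfbr3*, −0.097 to 0.0015 for *tgfbrap1*, −0.17 to 0.057 for *smad1* and −0.18 to 0.18 for SMAD4. The cause of these turns was not tested.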
